A study of Apera spica-venti with 7 samples.

Results

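Germinating seeds of the grass weed Apera spica-venti (loose silky-bent) were compared between BBCH stage 07, when the coleoptile leaves the grain, and BBCH stage 08, while the coleoptile lengthens. BBCH stages are the numbered growth stages used for crops and weeds. These are 2 of the 7 samples of the series, and the members compared are all translated transcripts whose best match among plant proteins had an e-value of at most 0.1. They numbered 39930 of 45511 at BBCH 07 (87.7%) and 38229 of 43324 at BBCH 08 (88.2%), together 78159 of the 251792 annotated transcripts in the 7 single assemblies. Both stages came from the same mixture of 6 herbicide-susceptible populations, germinated in 9 cm dishes wetted with 5 mL of water at 10 and 17 °C for 10 h of night and 14 h of day. RNA was taken from 0.7 g of germinating seeds per stage and pooled over several individuals, so the coleoptile was not read on its own. Per the paper, RNA of lower integrity than recommended was accepted, because germinated seeds gave good RNA only with difficulty. Its part in the lengths and counts below was not tested. There was 1 library per stage. No difference could be set against a spread between seed lots, no test of the stages was possible, and all intervals hold counting error only. The intervals treat transcripts as independent, and can be too narrow where several come from 1 gene.

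The coleoptile is the sheath that covers the first leaf of a grass seedling and carries it upwards, and it grows mainly by lengthening of cells already present. During this time the seedling lives on the grain: amylases and proteases digest starch and storage proteins in the endosperm, fatty acids are oxidised in peroxisomes, and the products travel to the growing axis as sucrose, amino acids and peptides. Temperate grasses also hold fructans, chains of fructose built on sucrose, which are made and cut by enzymes of the invertase family. Lengthening of cells needs a wall that yields, and expansins, xyloglucan endotransglucosylases and pectinesterases act on that wall.

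The files give no expression level. The authors evened out read depth, assembled each library on its own and merged like contigs, and each line of a table is 1 assembled, translated sequence with its best homologue. A count in what follows is therefore a number of assembled sequences. It rises when more genes or alleles of a kind were assembled and also when 1 gene was assembled in several pieces. The summed length of the peptides, in amino acids, is for this reason given beside counts. A sequence missing from 1 assembly may have been low in that RNA or only poorly assembled, and in these germinating seeds fewer cells of a type and less RNA per cell cannot be told apart either.

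The assembly of BBCH 07 held more and shorter peptides than that of BBCH 08. The median peptide had 175 amino acids at BBCH 07 and 183 at BBCH 08, and the upper quartiles were 292 and 313. Peptides under 200 amino acids made up 57.6% of the annotated transcripts at BBCH 07 (95% Wilson interval 57.1 to 58.1) and 54.5% at BBCH 08 (54.0 to 55.0). Peptides of 500 amino acids or more numbered 3229 and 3497. The total length was nearly the same, at 9753169 amino acids for BBCH 07 and 9719046 for BBCH 08, so that the later assembly carried 0.957 times the transcripts and 0.997 times the amino acids of the earlier one. Median similarity to the best homologue was 86% in both. BBCH 07 had the shortest peptides of the 4 seed stages, since the medians at BBCH 05 and BBCH 09 were 200 and 188.

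**Figure D1:**
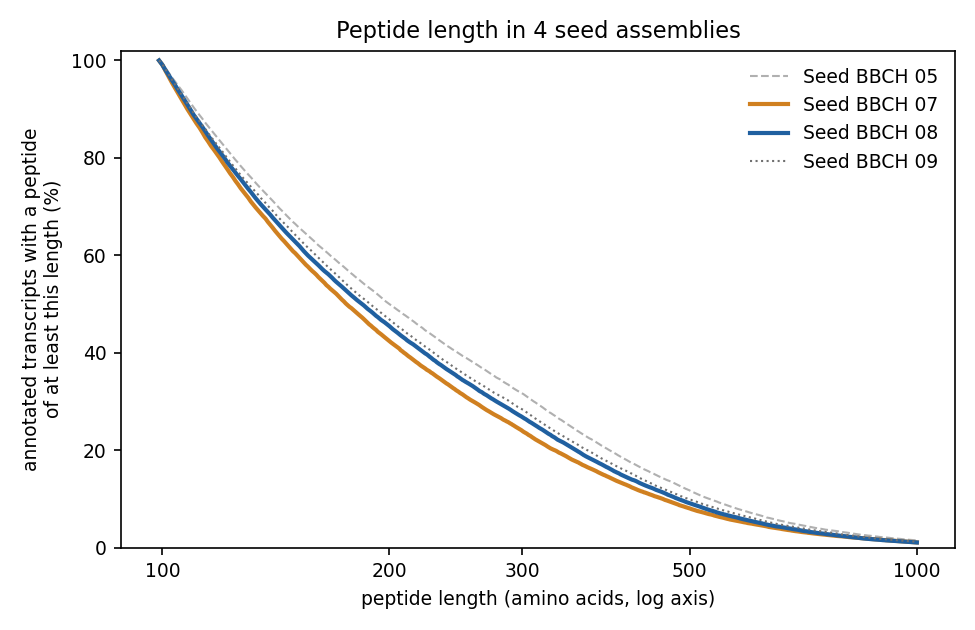
Share of annotated transcripts (y axis, percent) whose peptide is at least as long as the value on the x axis (amino acids, log axis), with 1 line per seed assembly. Between 101 and 838 amino acids the line of BBCH 07 lies under that of BBCH 08, with 57.6% and 54.5% of peptides under 200 amino acids, and from 839 amino acids on it lies just above it.

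Transcripts with the same best homologue, counted here as 1 protein, were compared next. Such transcripts can be pieces of 1 gene or different genes or alleles, and the counts do not tell these apart. Of 19238 proteins found in both assemblies, the longest peptide was longer at BBCH 08 for 9525 (49.5%), longer at BBCH 07 for 7918 (41.2%) and of equal length for 1795 (9.33%). It was at least 2-fold longer at BBCH 08 for 1235 of them and at least 2-fold longer at BBCH 07 for 924. The same shared proteins took 1.55 transcripts each at BBCH 07 and 1.49 at BBCH 08. More transcripts stood for the protein at BBCH 07 in 3838 cases and at BBCH 08 in 3219.

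The functional make-up of the assemblies was close. Gene Ontology (GO) names, which Blast2GO attaches to a sequence for its function, process or place in the cell, were on 74.6% of annotated transcripts at BBCH 07 and 74.8% at BBCH 08. Enzyme codes were on 13.7% and 14.0%. Names that say what the protein is, and not only that it is uncharacterized, were on 23.4% and 23.3%. Of 4074 GO names in either assembly, 1059 were on at least 20 transcripts of both together and were compared as shares of annotated transcripts. The median ratio of the share at BBCH 08 to that at BBCH 07 was 1.01, and 5% of the names lay below 0.711 and 5% above 1.37. A ratio of at least 1.5, computed with 0.5 added to each count, was reached by 26 GO names with the higher share at BBCH 08 (2.46%) and by 36 with the lower (3.4%). For 4 of the 1059 (0.378%) the 95% counting interval of the ratio left out 1. The largest GO name found at 1 stage alone was on 4 transcripts.

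**Figure D2:**
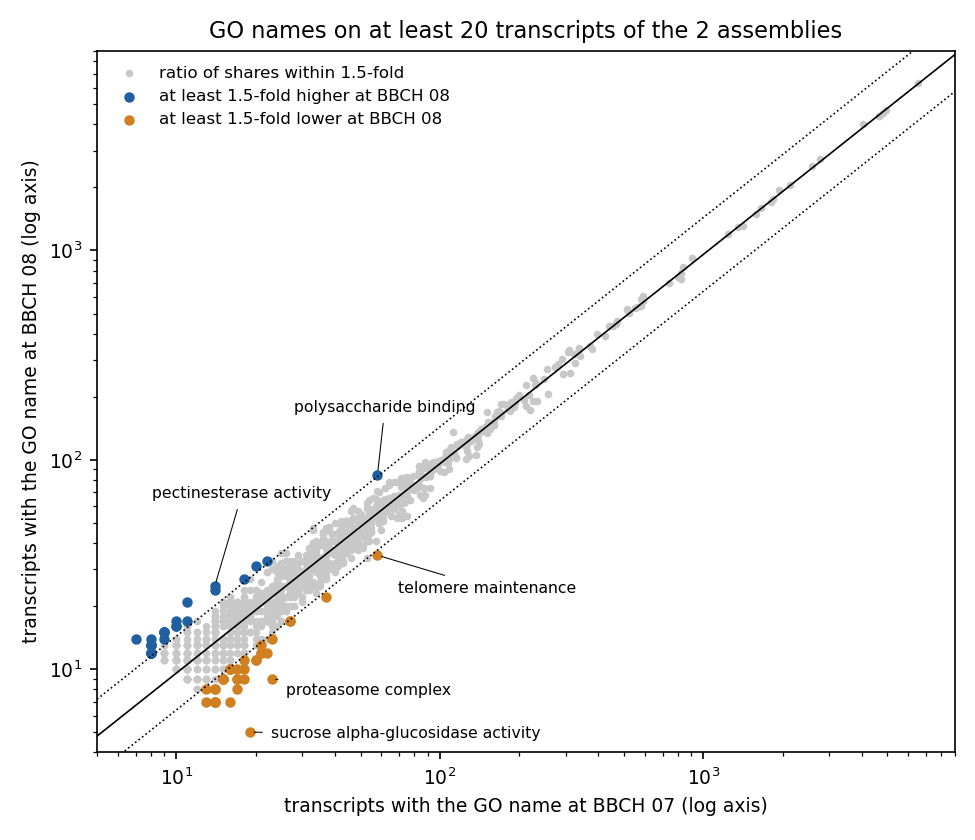
Transcripts that carry each of the 1059 GO names at BBCH 07 (x axis) and at BBCH 08 (y axis), both on log axes, with 1 point per GO name. The solid line marks equal shares and the dotted lines a ratio of 1.5 either way; the 26 names called higher and the 36 called lower at BBCH 08, with 0.5 added to each count, are coloured, and nearly all are on few transcripts.

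The lowest ratio among GO names and among enzyme codes belonged to the same group, enzymes of the invertase and fructosyltransferase family. The code EC:3.2.1.26, beta-fructofuranosidase or invertase, was on 20 transcripts at BBCH 07 and 6 at BBCH 08, a ratio of shares of 0.313 (95% counting interval 0.103 to 0.809). At BBCH 05 it was on 11 transcripts and at BBCH 09 on 17, so the count at BBCH 08 was the lowest of the 4 stages. The code EC:3.2.1.48 and its GO name, sucrose alpha-glucosidase activity, were on 19 and 5 transcripts (ratio 0.275, interval 0.0802 to 0.761).

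A pair of proteins made nearly all of that difference. Sequences closest to the barley protein M0Y7E8, which is listed as uncharacterized, numbered 9 at BBCH 07 and 1 at BBCH 08, against 3 before and 6 after. Those closest to Q05G12, a sucrose:sucrose 1-fructosyltransferase, the enzyme that begins fructan synthesis by moving fructose from one sucrose to another, numbered 6 and 1, and 4 at each neighbouring stage. F2DDP3 and M7YF44 were on 2 transcripts each at both stages, and Q43076, a beta-fructofuranosidase, on 1 transcript at BBCH 07 and 0 of 38229 at BBCH 08, which allows a share of up to 0.00785%. The peptides at BBCH 07 were short, with a median of 128.5 amino acids against 198.5 at BBCH 08. Their summed length was still smaller at BBCH 08, at 1285 amino acids against 3250, a ratio of shares of 0.397. Counted as distinct proteins the stages were close, with 5 at BBCH 07 and 4 at BBCH 08. The interval of the code treats each transcript as independent, which those on 1 homologue need not be.

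The GO name proteasome complex had the next lowest ratio, and there the summed length gave a different picture. The proteasome is the protease that degrades ubiquitin-tagged proteins. It was named on 23 transcripts at BBCH 07 and 9 at BBCH 08 (ratio 0.409, interval 0.166 to 0.917), while the summed peptides came to 5805 and 4879 amino acids, a ratio of shares of 0.843. ECM29, a scaffold protein that binds the proteasome, was a single peptide of 1842 amino acids at BBCH 08 and a pair of 1018 and 813 amino acids at BBCH 07, given to different homologues. Regulatory subunit 5 of the 26S proteasome was on 1 peptide of 537 amino acids at BBCH 08 and on 4 of 101 to 297 amino acids at BBCH 07. Regulatory subunits 1, 3 and 8 were on 5 short transcripts at BBCH 07, of 99 to 136 amino acids, and on none at BBCH 08. The median peptide in this group had 168 amino acids at BBCH 07 and 505 at BBCH 08. Named sequences under the GO name at these stages were regulatory subunits and ECM29. The code EC:3.4.25, given to peptidases of the proteasome core, went the other way. It was on 30 and 34 transcripts, with a ratio of 1.21 by summed length.

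**Figure D3:**
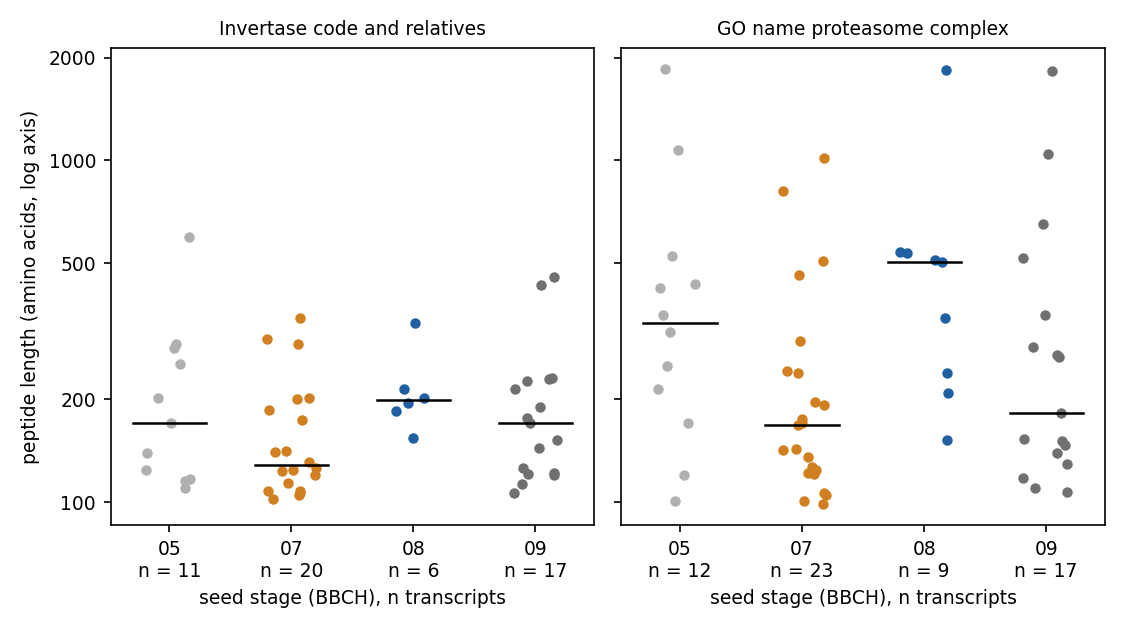
Peptide length (y axis, amino acids, log axis) of every transcript with the code EC:3.2.1.26 (left) and with the GO name proteasome complex (right), by seed stage on the x axis; the bars are medians. At BBCH 08 the invertase group holds 6 transcripts with a median of 198.5 amino acids against 20 with 128.5 at BBCH 07, and the proteasome group 9 with a median of 505 against 23 with 168.

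Among the other GO names with the lowest ratios, enzyme regulator activity was on 16 and 7 transcripts, and A0A0D3H2X9, F2DBR2 and regulatory subunit 3, which also carry the proteasome name, held 9 of the 16 and 4 of the 7. Lithium ion transport was on 17 and 8, coumarin biosynthetic process on 18 and 9, and the nucleolar ribonuclease P complex, intracellular transport and polar nucleus fusion on 14 and 7 each. Ribonuclease P trims the ends of transfer RNAs. In 5 of these 6 the summed length had a ratio of shares between 0.753 and 0.886, and in intracellular transport it was 0.630. Among coumarin terms, chorismate synthase, which closes the shikimate pathway, was on 4 peptides of at most 148 amino acids at BBCH 07 and on 1 of 441 at BBCH 08. Telomere maintenance, a larger name, was on 58 and 35 transcripts (ratio 0.630, interval 0.402 to 0.975), with a ratio of 0.784 by summed length. It included RAD50, a DNA repair protein, with 3 transcripts at BBCH 07 and 0 at BBCH 08.

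The 8 GO names with the highest ratios lay between 1.74 and 2.09, and the interval of each of them included 1. Protein disulfide isomerase activity, the forming and shuffling of disulfide bonds in new proteins, was on 7 and 14 transcripts (ratio 2.09, interval 0.789 to 6.12), with summed lengths of 2083 and 3627 amino acids. At BBCH 05 and BBCH 09 it was on 9 and 15. All 7 proteins that carried it at BBCH 07 were also found under it at BBCH 08, with 2 further ones. Sequences named protein disulfide isomerase, with or without this GO name, numbered 11 and 10, so the count of the GO name and the count by name differed in direction.

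Pectinesterase activity, the removal of methyl groups from wall pectin, was on 14 and 25 transcripts (ratio 1.87, interval 0.933 to 3.88), from 14 and 19 proteins. The stages before and after held 28 and 34, so that BBCH 07 was lowest of the 4. Aspartyl esterase activity was on the same group of enzymes, with 14 and 24 transcripts. Plant-type secondary cell wall biogenesis was on 11 and 21 transcripts (ratio 1.99, interval 0.919 to 4.58). The name was on 9 proteins in both assemblies, on 6 at BBCH 08 alone and on none at BBCH 07 alone. By summed length these ratios were 1.39 for pectinesterase activity and 1.36 for secondary wall biogenesis.

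Beta-amylase activity, the release of maltose from starch, was on 10 and 17 transcripts (ratio 1.78, interval 0.768 to 4.34). Glucose transmembrane transport was on 9 and 15, and racemase and epimerase activity on carbohydrates, which included UDP-glucuronate 4-epimerase 6, on 8 and 14. Polynucleotide adenylyltransferase activity, the adding of poly(A) tails, was on 9 and 15. By summed length the ratios were 1.51, 1.53, 1.51 and 1.17 in that order. Polysaccharide binding was the GO name past the 1.5-fold ratio on most transcripts, with 58 and 85 (ratio 1.53, interval 1.08 to 2.18). It was on 81 proteins, of which 30 carried it in both assemblies, 14 at BBCH 07 alone and 37 at BBCH 08 alone. A protein without the GO name at 1 stage may still be in that assembly, so the next shares are not of the same kind. Of all 36923 proteins in either assembly 19238 (52.1%) were in both, and 32.2% of those at BBCH 07 and 30.8% of those at BBCH 08 were in that assembly alone. Most of the 81 proteins had no informative name, and wall-associated kinase 2, a receptor that touches the wall, was among those that had one. By summed length the ratio of polysaccharide binding was 1.26.

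Of the 1059 GO names, 9 (0.85%) were at least 1.5-fold apart both in transcripts and, the same way, in summed amino acids. Those with the lower share at BBCH 08 were sucrose alpha-glucosidase activity, intracellular transport and organic substance metabolic process. Those with the higher share were beta-amylase activity, protein disulfide isomerase activity, the epimerase name and 3 names for glucose transport and import.

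Of 672 codes, 110 were on at least 20 transcripts, and 6 had a share at least 1.5-fold higher at BBCH 08 (5.45%) and 6 a share at least 1.5-fold lower (5.45%). The interval left out 1 for 2 of the 110 (1.82%), the invertase codes above. Below the pair of invertase codes came EC:3.1.4.11, phosphoinositide phospholipase C, which splits a membrane lipid into second messengers, with 17 and 9 transcripts. EC:3.1.26.5, ribonuclease P, was on 16 and 9. EC:6.3.4.2, CTP synthase, was on 13 and 8, from the same 5 proteins at both stages and with 3132 and 3300 amino acids, so that its ratio by summed length was 1.06. EC:6.3.5.4, asparagine synthase, which makes the amide in which seedlings carry nitrogen, was on 16 and 10. Next to these, and short of 1.5-fold with 0.5 added, came EC:2.7.7.27, glucose-1-phosphate adenylyltransferase, which makes the glucose donor of starch, with 15 and 10, and EC:1.14.19.2, the desaturase that makes oleate in plastids, with 12 and 8. In the last 6 codes the summed lengths had ratios between 0.854 and 1.06.

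At the other end stood EC:5.3.4.1, protein disulfide isomerase, with 7 and 14 transcripts, EC:3.1.1.11, pectinesterase, with 14 and 24, and EC:3.2.1.2, beta-amylase, with 9 and 15. EC:2.4.1.14, sucrose-phosphate synthase, which makes the sucrose that seedlings export, was on 9 and 14, but with 4128 and 4301 amino acids, a ratio of 1.05 by length. The longest peptide given to sucrose-phosphate synthase 1 (N1QSX0) had 1043 amino acids at BBCH 07 and 301 at BBCH 08. EC:2.4.1.135, a glucuronosyltransferase code, was on 11 and 17, and EC:5.99.1.2, DNA topoisomerase, on 8 and 12. Just short of the limit were EC:2.7.1.107, diacylglycerol kinase, with 11 and 16, and EC:5.1.3.2, UDP-glucose 4-epimerase, which supplies galactose to the wall, with 9 and 13 and a ratio of 1.60 by length.

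Among protein names, 118 of 3995 were on at least 20 transcripts, and 6 were at least 1.5-fold higher at BBCH 08 (5.08%) and 10 at least 1.5-fold lower (8.47%). The name retrotransposon unclassified, given to copies of mobile elements, was on 35 and 18 transcripts (ratio 0.537, interval 0.286 to 0.975), and it was the only one of the 118 (0.847%) whose interval left out 1. Its summed length ratio was 0.504, and 9 of its 30 proteins were in both assemblies, 14 at BBCH 07 alone and 7 at BBCH 08 alone, against 52.1% of all proteins in both. Disease resistance RGA1, a nucleotide-binding immune receptor, was on 30 and 17, of which M8C621 alone took 9 and 2. The receptor kinase GSO1, known in Arabidopsis for keeping the embryo surface closed, was on 17 and 8. Chlorophyll a-b binding proteins of the light-harvesting antenna were on 21 and 13, with M7YJZ8 on 10 and 4. For these last 3 names the ratio by length lay between 0.525 and 0.627.

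Phosphoinositide phospholipase C was on 13 and 7 transcripts by name, the katanin subunit B1 homologue, part of a microtubule-severing enzyme, on 14 and 8, CTP synthase on 15 and 9 and (+)-delta-cadinene synthase, a sesquiterpene enzyme, on 13 and 8. By length their ratios lay between 0.860 and 0.951. Among the names with the highest ratios, the terpene cyclase family, which closes the rings of sterols and triterpenes, was on 9 and 17, and the L-type lectin receptor kinases on 8 and 14. The GDSL esterases and lipases, secreted hydrolases that include cutin enzymes, were on 8 and 13. The proteolytic subunit of the Clp protease of plastids and mitochondria was on 16 and 24. Patatin, a lipid acyl hydrolase, was on 10 and 15, and argonaute, which holds small RNAs, on 19 and 28. HVA22, a stress-induced membrane protein of cereals, and pectinesterase were just short of the limit, with 9 and 13 and with 17 and 24. Of these 8 names the L-type lectin kinases with 2.16 and the GDSL enzymes with 1.60 were past 1.5 also by summed length, and argonaute with 1.09 and patatin with 1.04 lay close to 1. Among peptides of at least 200 amino acids the terpene cyclases, with 0.844, and patatin, with 0.695, had the lower share at BBCH 08. Of the 118 names, 7 (5.93%) passed 1.5-fold both in transcripts and, the same way, in summed amino acids.

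For a wider view, 195 kinds of protein in 30 functional lists were counted by name. Of these, 182 were found in at least 1 of the assemblies, and 138 were on at least 10 transcripts of both together. Among the 138, 10 had a share at least 1.5-fold higher at BBCH 08 (7.25%) and 9 a share at least 1.5-fold lower (6.52%), and the median ratio was 1.04. The interval left out 1 for 1 of the 138 (0.725%), the cytosolic 40S ribosomal proteins. Over whole lists the ratio with 0.5 added ran from 0.627 for light signalling, the 1 list of 30 past 1.5-fold (3.33%), to 1.45 for plastid development, with a median of 1.04, and for 0 of the 30 lists did the counting interval leave out 1.

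**Figure D4:**
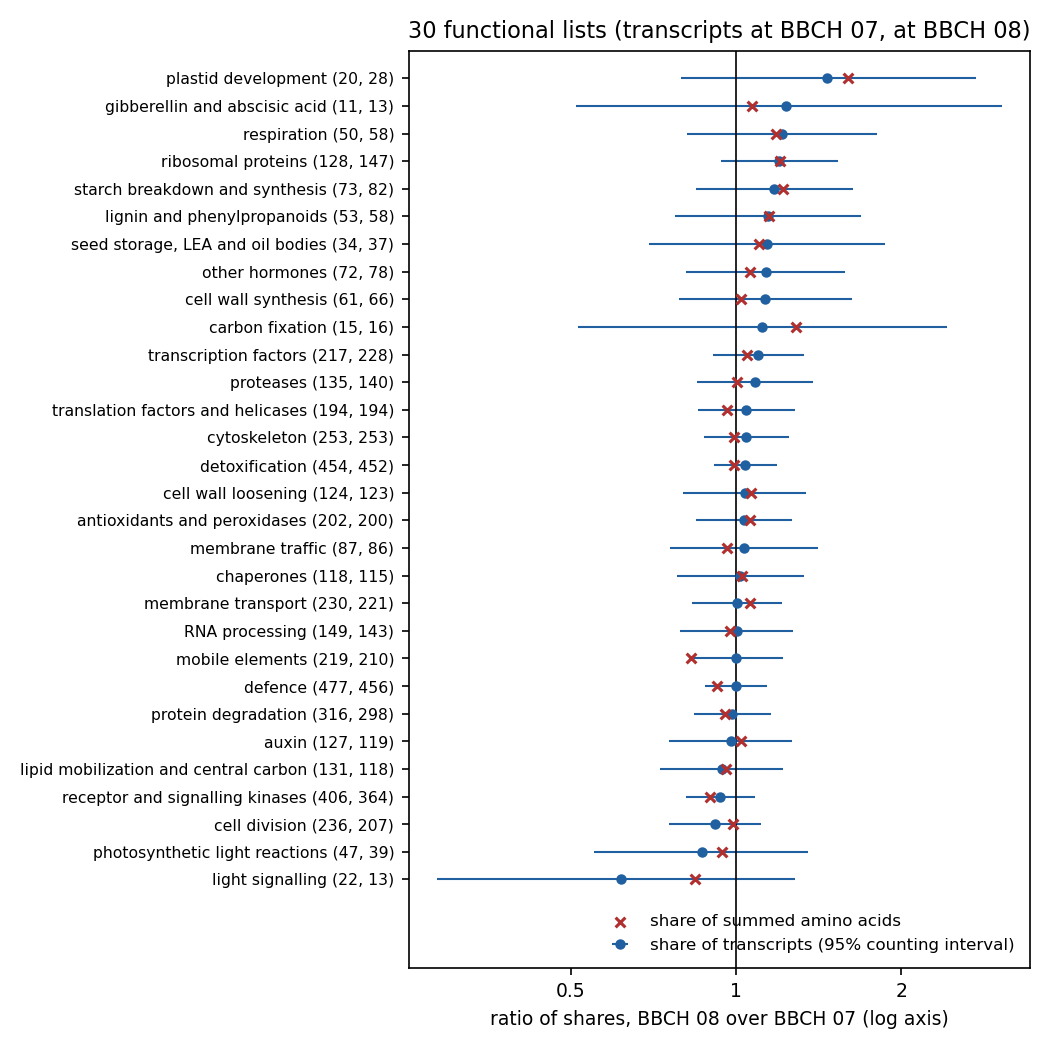
Ratio of the share at BBCH 08 to that at BBCH 07 (x axis, log axis) for each of the 30 lists (y axis), with the transcripts at both stages in brackets. Points with bars are shares of transcripts with their 95% counting interval, crosses are shares of summed amino acids; every bar crosses 1.

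Counted by name, proteins of the small ribosomal subunit showed the clearest count difference among the lists. Informative names were on only 23.4% of annotated transcripts at BBCH 07 and 23.3% at BBCH 08. No GO name for the ribosome or for translation was among those past the 1.5-fold ratio. Names of cytosolic 40S proteins were on 16 transcripts at BBCH 07 and 33 at BBCH 08, a ratio of 2.15 (interval 1.15 to 4.19), from 15 and 27 proteins, and by summed length the ratio was 2.36. The neighbouring stages held 26 at BBCH 05 and 45 at BBCH 09, so BBCH 07 was the lowest of the 4. Of 18 names in either assembly, 13 were on more transcripts at BBCH 08 and 4 on fewer. S24 was on 1 and 6 transcripts, S23 on 0 and 4, SA on 3 and 5 and S15 on 0 and 2, while S6 with S6-2 was on 4 and 3, and S27 and S5-1 on 1 and 0 each. Sequences closest to green algae were 0 of the 16 and 1 of the 33. Proteins of the large 60S subunit went the other way in count, with 48 and 42 (ratio 0.914, interval 0.589 to 1.41), and 11 of their 32 names had more transcripts at BBCH 08 and 12 fewer. L5-1 was on 1 and 4, L9 on 4 and 1 and L10a-3 on 4 and 1. The whole ribosomal list was on 128 and 147 transcripts, with 1 of its 5 members past the 1.5-fold ratio. Best homologues in green algae were 1 of the 128 and 8 of the 147, and without them the ratio of the list, with 0.5 added, was 1.14. The interval of the whole list was 0.940 to 1.53. The widest member, any name that opens with ribosomal or with a subunit and so includes the others, was on 125 and 145.

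The rest of the translation machinery differed less. Elongation factors, which move the ribosome along, were on 22 and 34 transcripts (ratio 1.61, interval 0.917 to 2.90), with elongation factor Tu on 3 and 8, factor Ts on 5 and 8 and factor 1-alpha on 4 and 6. By length their ratio was 1.26. Initiation factors were on 60 and 59, aminoacyl-tRNA synthetases, which load amino acids onto transfer RNAs, on 63 and 48, and DEAD-box RNA helicases on 49 and 53. The translation list as a whole was on 194 transcripts at each stage. RNA polymerase subunits were on 53 and 57, and the RNA processing list on 149 and 143. Chaperones were on 118 and 115, with peptidyl-prolyl isomerases on 49 and 39 and chaperonins on 9 and 13.

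Among starch enzymes, beta-amylase was on 5 and 11 transcripts (ratio 2.30, interval 0.736 to 8.44), with 8 at both BBCH 05 and BBCH 09. The count of starch synthase, which lengthens the chains, depended on how its name was spelled. Spelled in full it was on 3 and 7 transcripts, and the name starch chloroplastic amyloplastic, which mostly carried the GO name for starch synthase and had lost the word synthase, was on 16 and 10. Together they were on 19 and 17 (ratio 0.935, interval 0.456 to 1.90), a sum made after the values were seen. Alpha-amylase, which cuts inside the starch chain, was on 13 and 16, and debranching enzymes on 3 and 5. ADP-glucose pyrophosphorylase was on 16 and 10, but 9 and 7 proteins stood behind these and the ratio by length was 0.882. Sucrose synthase, the largest member, was on 18 and 20. Of the 5 starch members on at least 10 transcripts, 2 were past 1.5-fold higher and 1 past 1.5-fold lower, and the list held 73 and 82 transcripts, or 89 and 92 with the shortened name.

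Storage, desiccation and oil body proteins were together on 34 and 37 transcripts, but not every kind was alike. Globulins were on 14 transcripts at each stage, oleosins, the coat of oil bodies, on 5 and 6, and prolamins on 2 and 0. The dehydrins, which protect drying seed tissue, were on 1 transcript at BBCH 07 and on 5 at each of the other 3 seed stages. Late embryogenesis abundant proteins were on 1 and 2. Glutelins were not found by name.

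Proteases made up 135 and 140 transcripts. Aminopeptidases by name, which trim amino acids from the start of a peptide, were on 12 and 5 (ratio 0.435, interval 0.120 to 1.33). Methionine aminopeptidases of 3 names took 8 of the 12 and 3 of the 5. The aminopeptidase code EC:3.4.11 was nearer to equal, on 29 and 25 transcripts, with a ratio of 0.919 by length. Serine carboxypeptidases, which act on storage proteins, were on 8 and 12, and the ratio by length was 1.51. The FtsH and Clp proteases of organelles were on 55 and 65 and subtilisin-like proteases on 22 each. The aspartic proteinases were on 14 and 15, and the cysteine proteinases, which include the main enzymes of storage protein breakdown, on 24 and 21.

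Among lipid and carbon enzymes, those of peroxisomal beta-oxidation were on 11 transcripts at BBCH 07 and 5 at BBCH 08 (ratio 0.475, interval 0.129 to 1.48), against 3 at the stage before and 9 at the stage after. Those named acyl-coenzyme A oxidase were on 5 and 4, the multifunctional proteins on 3 and 0 and the peroxisomal 3-ketoacyl thiolase on 2 and 0. The stages shared 2 of the 7 proteins, and 5 were at BBCH 07 alone, where 32.2% of all proteins were. These counts are by name, and enzyme codes of fatty acid oxidation were nearer to equal. EC:1.1.1.35, 3-hydroxyacyl-CoA dehydrogenase, was on 11 and 10 transcripts, with a ratio of 0.976 by length. EC:1.3.99.3, acyl-CoA dehydrogenase, was on 17 and 14, with a ratio of 1.06 by length. Enzymes of the glyoxylate cycle, which turns fatty acids into sugar, were on 6 and 7, and phosphoenolpyruvate carboxykinase, the step from there towards sugar, on 0 and 3. Pyruvate decarboxylase, the entry to ethanol fermentation, was on 7 and 2, below the limit of 10 set for naming but given here after its values were seen, and alcohol dehydrogenase was on 9 each. Hexokinase and phosphofructokinase, the largest member, were on 31 and 27. Respiratory enzymes were on 50 and 58, with cytochrome c oxidase on 4 and 7 and enzymes of the citrate cycle on 20 and 26.

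Wall-loosening proteins were on 124 and 123 transcripts, but the kinds within the list were not alike. Expansins, which let wall polymers slip without cutting them, were on 10 transcripts at BBCH 07 and 3 at BBCH 08 (ratio 0.313, interval 0.0554 to 1.22), against 9 before and 14 after. Of 8 expansin names, 6 were on fewer transcripts at BBCH 08 and 1 on more, and expansin B2 and expansin-like A1 were on 2 and 0 each. The expansin peptides of BBCH 08 had 134 to 183 amino acids and those of BBCH 07 99 to 209, and by length the ratio was 0.340. Pectinesterases were on 17 and 24, xyloglucan endotransglucosylases on 22 and 23, endoglucanases on 21 and 19 and beta-galactosidases, the largest member, on 27 and 26. Cellulose synthases were on 32 and 31, callose synthases on 12 and 15, and phenylalanine ammonia-lyase, which opens the path to lignin, on 26 and 28. Chalcone synthase, which opens the path to flavonoids, was on 5 and 8.

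Plastid and light proteins were few at both stages. Light-harvesting chlorophyll a-b binding proteins of all names were on 23 and 17 transcripts and the light reactions together on 47 and 39. Enzymes that build chlorophyll and haem were on 7 and 9, protochlorophyllide reductase, the light-driven step of chlorophyll synthesis, on 2 and 5, and plastid development as a list on 20 and 28 (ratio 1.46, interval 0.795 to 2.74; 1.60 by length). Phosphoenolpyruvate carboxylase, which fixes bicarbonate, was on 5 and 9 by name, with a ratio of 2.56 by length. Its enzyme code, EC:4.1.1.31, was on 14 and 18, with a ratio of 1.07 by length. Light signalling had the lowest ratio of the lists, with 22 and 13 transcripts (0.617, interval 0.286 to 1.28; 0.843 by length). Within it, COP9 signalosome subunits, which restrain light responses in the dark, and far-red impaired response proteins, which act in phytochrome signalling, were together on 9 and 3. Phototropins and their partners, which bend the coleoptile towards blue light, were on 7 and 4, and of these phototropin-1 and phototropin-2 were on 3 and 0. Phytochromes were on 4 at each stage.

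The auxin list was on 127 and 119 transcripts (ratio 0.979), gibberellin and abscisic acid on 11 and 13 (1.23) and the other hormones on 72 and 78 (1.13). Auxin response factors, the transcription factors that read the hormone behind coleoptile lengthening, were on 60 and 54, and the Aux/IAA proteins that hold them back on 36 and 35. Auxin transport proteins were on 14 and 12. Gibberellin oxidases were on 7 at each stage. Jasmonate enzymes and JAZ proteins were on 27 and 36, response regulators of cytokinin and of the clock on 9 and 13, and the enzymes of ethylene and its precursor, the 1 hormone member past 1.5-fold, on 9 and 5. Among the response regulators, the clock members PRR37, PRR73 and PRR95 were on 0 and 4. MYB factors, the largest group of transcription factors, were on 36 and 44, bHLH factors on 19 and 26, NAC factors on 34 and 31 and WRKY factors on 30 and 27.

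Receptors, defence and detoxification held the most transcripts and were near equal in share. Nucleotide-binding immune receptors were on 418 and 398 (ratio 0.995, interval 0.865 to 1.14) and receptor-like kinases on 325 and 286 (0.919, interval 0.781 to 1.08). In the kinase list 113 of 271 proteins (41.7%) were at BBCH 07 alone and 80 of 238 (33.6%) at BBCH 08 alone, beside 32.2% and 30.8% of all proteins. Pathogenesis-related proteins were on 7 and 4. Glycosyltransferases, which attach sugars to hormones, phenolics and herbicide products, were on 267 and 265, cytochrome P450s on 99 and 95, glutathione S-transferases on 18 and 22 and class III peroxidases of the wall on 140 and 144. Glutathione peroxidases were on 6 and 10, with a ratio of 1.28 by length and, with 0.5 added, of 0.417 among peptides of at least 200 amino acids.

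Cell division proteins were on 236 and 207 transcripts, with histone modifiers and chromatin remodellers on 97 and 75, DNA replication on 42 and 36 and histones on 24 and 29. Kinesins, motors that walk along microtubules, were on 130 at each stage, and tubulins on 21 and 22. RING and U-box ligases, which mark proteins for the proteasome, were on 177 and 159, ubiquitin-conjugating enzymes on 7 and 12, and proteasome subunits by name on 32 and 23. ABC transporters were on 82 and 85, metal transporters on 13 and 8, with a ratio of 0.961 by length, coat proteins of transport vesicles on 49 and 50 and retrotransposon proteins on 164 and 147.

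**Figure D5:**
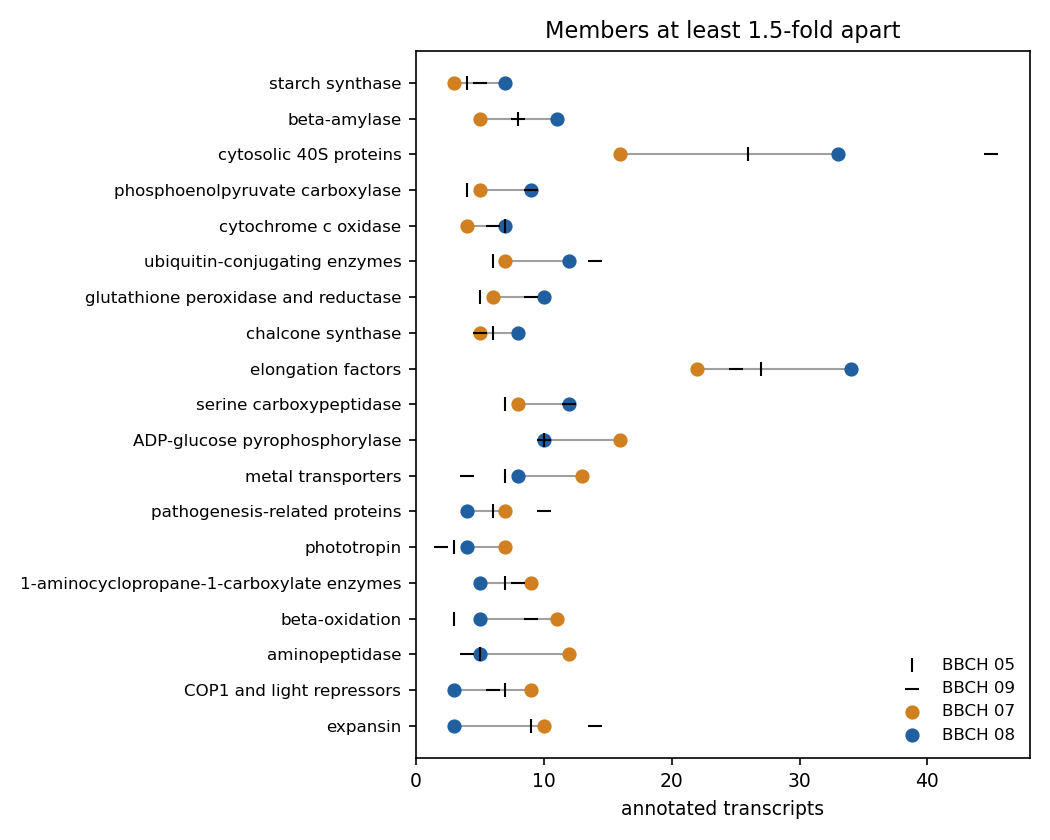
Annotated transcripts (x axis) of the 19 list members on at least 10 transcripts with a ratio of at least 1.5 either way (y axis, in order of ratio). Orange and blue points are BBCH 07 and BBCH 08, upright marks BBCH 05 and flat marks BBCH 09; for 40S proteins the points stand at 16 and 33 and for expansins at 10 and 3, and starch synthase is counted here under its full name only.

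The order of stages was not the same among these 19 members. Expansins were lowest at BBCH 08 of the 4 stages and 40S proteins lowest at BBCH 07. Ubiquitin-conjugating enzymes were on 6, 7, 12 and 14 transcripts from BBCH 05 to BBCH 09, and serine carboxypeptidases on 7, 8, 12 and 12. Metal transporters were on 7, 13, 8 and 4.

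Proteins found in 1 of the 2 assemblies made up close to equal parts of both. By UniProt accession of the best homologue, 9131 of 28369 proteins were at BBCH 07 and not at BBCH 08 (32.2%, Wilson interval 31.6 to 32.7), and 8554 of 27792 were at BBCH 08 and not at BBCH 07 (30.8%, 30.2 to 31.3). Most were on 1 transcript, 89.7% of those at BBCH 07 alone and 90.7% of those at BBCH 08 alone, and the most transcripts on any was 5. Their peptides were short, with medians of 141 and 143 amino acids against 193 and 204 for transcripts of shared proteins. Best homologues below the limit, with weaker matches, were listed at the other stage for 77 and 60 of them.

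Many of these proteins were not particular to the stage. Of the 9131, 4479 (49.1%) were also in the assembly of BBCH 05 or BBCH 09, and 5950 (65.2%) in at least 1 of the 5 other single assemblies. Of the 8554, the numbers were 4482 (52.4%) and 5845 (68.3%). At BBCH 05 and again at BBCH 09, but not at BBCH 08, were 1710 proteins of BBCH 07, and at both of these but not at BBCH 07 were 1752 proteins of BBCH 08. In no other single assembly were 3181 (34.8%) and 2709 (31.7%). Informative names on these transcripts numbered 1337 and 1235, and 42.4% and 42.6% of them stood at the other stage on another accession.

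The proteins at BBCH 07 alone with the most transcripts, 5 each, were N1QS69, M7ZAN9 and W5GSJ7, all uncharacterized, kanadaptin (M7ZYQ3) and the disease resistance protein RPM1 (N1QYX7), an immune receptor first known from Arabidopsis. Each of the 5 was also in the assembly of BBCH 09, on 1 to 4 transcripts. The next 5, on 4 transcripts each, had no informative name: M8BWR9, K3Z371, I1J1Y2, F2EA07 and C0PEV3. At BBCH 08 alone, ABC transporter G family member 38 (M7ZBA5) was on 5 transcripts with 1049 amino acids in all, beside W5AKP4, with an ADP-binding term as immune receptors have, and W4ZNR0, with a protein kinase term. On 4 transcripts each were the AP-1 complex subunit gamma-1 (M8CGY9), which packs cargo into vesicles at the Golgi, the microtubule plus-end protein of the EB family (M7ZDX0), the 60S ribosomal protein L5-1 (M7Z526), and A0A0E0E2P3, W5F1D8, I1GZA7 and T1MUI0 without an informative name. All 10 of BBCH 08 were also at BBCH 05, on 1 to 5 transcripts.

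By name in place of accession, 770 names were at BBCH 07 alone and 709 at BBCH 08 alone. Those of BBCH 07 with 5 transcripts included asparaginyl-tRNA synthetase of the cytoplasm, the ubiquitin ligase RNF14 and the cysteine-rich receptor kinase 19, and histone deacetylase 19, a chromatin repressor, had 4. Those of BBCH 08 with 4 transcripts included 40S ribosomal S23, which was at none of the 4 seed stages but BBCH 08, and the chloroplast lipoxygenase of jasmonate synthesis. Ent-kaurene synthase of the chloroplast, an early step towards gibberellins, had 3 at BBCH 08, and so did the ATP-dependent phosphoenolpyruvate carboxykinase. Both of these were also at BBCH 05 and BBCH 09, with 2 at the earlier stage and 3 and 4 at the later.

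Among proteins in both assemblies, the largest change in number of transcripts was that of RPP13 (N1QU93), an immune receptor, with 1 transcript of 371 amino acids at BBCH 07 and 11 transcripts at BBCH 08. It was on 3 at BBCH 05 and 5 at BBCH 09. At the other end, M0Y7E8 of the invertase family went from 9 to 1 and M8AUS2, uncharacterized, from 13 to 5.

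Markers of the tissues that a germinating grain could hold were present at both stages in like numbers. The 7 aleurone and endosperm markers were on 34 transcripts at BBCH 07 and 36 at BBCH 08, and 27 to 40 over the 4 seed stages. They were on 21 in the root, 9 in the leaf and 6 in the stem assembly, so they do not mark the grain alone. Of the storage proteins, hordein, glutelin and gliadin were at 0 in both and avenin at 2 and 0. The 3 green shoot markers were on 26 and 23 transcripts, against 36 in the leaf, 25 in the root and 20 in the stem assembly, so they do not mark green shoot alone. The 3 root markers were on 33 and 27, against 41 in the root, 21 in the leaf and 24 in the stem assembly. Of these, nicotianamine synthase was at 0 in both and nitrate transporters were on 4 and 2. The Casparian strip marker was on 29 and 25 transcripts, and its seed counts equal those of the short name CASP. It was on 29 in the root, 18 in the leaf and 22 in the stem assembly, so it does not mark root alone. Pollen markers were on 2 and 3. Best homologues in green algae were on 63 transcripts at BBCH 07 (0.158%, Wilson interval 0.123 to 0.202) and 92 at BBCH 08 (0.241%, 0.196 to 0.295), against 86 at BBCH 05 and 356 at BBCH 09. Without these transcripts 26 GO names were 1.5-fold higher and 35 lower, enzyme codes 6 and 6 and names 6 and 10, and the 40S ratio with 0.5 added was 2.06. The part of the other markers in the counts above was not tested.

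Set beside the neighbouring steps of germination, the step from BBCH 07 to 08 was of ordinary size. Of GO names on at least 20 transcripts, 5.85% were 1.5-fold apart either way, against 7.24% of those from BBCH 05 to 07 and 5.38% of those from BBCH 08 to 09. For enzyme codes the shares were 10.9%, 8.91% and 7.96% and for names 13.6%, 13.8% and 9.84%, in the same order. These comparisons share the assemblies of BBCH 07 and BBCH 08, and the differences between the shares were not tested.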

How the data were processed

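Per the paper's methods, the authors clipped reads with Trimmomatic (of a version that the sources used here do not give), evened out depth by k-mers, assembled each library with Trinity, kept the longest isoform, merged like contigs, translated the longest reading frame, searched UniProtKB plant proteins with blastp and annotated with Blast2GO. In the deposited tables the e-value is a score as the authors' search gave it, mean similarity is a percent, and length is in amino acids. Unmapped columns numbered 0. Fewer transcripts give wider intervals; reads behind a transcript are not in the tables.

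Kept were transcripts whose e-value did not exceed 0.1. Shares of annotated transcripts were compared as a ratio with an exact conditional 95% interval, and single shares with Wilson intervals. Features on at least 20 transcripts in both together (list members: 10) were called at a ratio of at least 1.5 with 0.5 added to each count. Printed ratios have nothing added, except the limits and medians over many features and the range over lists. Named were the 8 highest and 8 lowest per class, the 10 proteins in 1 assembly with most transcripts (ties by summed length), list members past 1.5 and the largest of each list; other names were chosen after their values were seen. The members and lists were chosen with earlier results of these data known, and list patterns were respelled to the names in the files. Some names had lost words in the annotation, so a list can miss members. Leaving out best homologues in green algae and counting a shortened name of starch synthase were added after seeing the data. The procedure was tested on simulated independent counts, for GO names well above the limit of 20 transcripts. Smaller counts, and several transcripts from 1 gene, were not simulated. The scripts ran in Python 3.11.15 with pandas 2.3.3, SciPy 1.17.1, matplotlib 3.10.9 and NumPy 2.4.6. No sequences or genome were used here.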

Additional observations from a re-analysis of the deposited data

How the results depend on the processing

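Which features passed 1.5-fold depended on the unit counted. GO names higher and lower at BBCH 08 numbered 26 and 36 by transcripts, 8 and 3 by distinct proteins, 8 and 7 with peptides of at least 200 amino acids, 10 and 6 by summed amino acids (chosen after seeing the data), 1 and 3 at a ratio of 2, and 104 and 96 with a minimum of 10 transcripts. Enzyme codes, 6 and 6, became 1 and 0, 1 and 0, 2 and 2, 1 and 2, and 16 and 20 in that order. Names, 6 and 10, became 0 and 1 by distinct proteins, 2 and 0 for long peptides, 0 and 0 at a ratio of 2 and 36 and 34 with a minimum of 10. By summed amino acids 3 names were higher and 10 lower. Names numbered 3 and 6 at an e-value limit of 1e-05, 3 and 7 at 1e-10 and 4 and 6 with 1 transcript per Trinity gene. Proteins in 1 assembly numbered 939 and 797 on at least 2 transcripts, 770 and 709 as names, and 4266 and 4830 among long peptides, where the order of the stages turned. Peptides under 200 amino acids at a limit of 1e-10 were 56.1% and 52.8%.

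With peptides of at least 200 amino acids these ratios (with 0.5 added) changed side: enzyme regulator activity 2.09, intracellular transport 1.19, ribonuclease P complex 1.53, polynucleotide adenylyltransferase 0.973, proteasome complex 1.10, EC:2.4.1.135 0.973, EC:3.1.26.5 1.41, EC:6.3.4.2 1.15, GSO1 1.19, patatin 0.695, terpene cyclase 0.844, ADP-glucose pyrophosphorylase 1.33, chalcone synthase 0.973, cytochrome c oxidase 0.973, glutathione peroxidase 0.417 and starch synthase 0.973. By distinct proteins EC:6.3.4.2, chlorophyll a-b binding proteins and the katanin subunit were at 1.02, and by summed amino acids EC:6.3.4.2 was at 1.06. Counted with its shortened name, starch synthase was at 0.937. The setting itself leaves fewer transcripts; no other cause was tested. Over all alternatives the ratio of EC:3.2.1.26 stayed between 0.331 and 0.835. Counted by name in every alternative, the ratio of 40S proteins stayed between 1.81 and 2.92, and of expansins between 0.195 and 0.476. That of beta-oxidation, also by name only, stayed between 0.340 and 0.584. No paired analysis was possible because each stage has 1 library.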
